A study of Mus musculus with 4 samples.

Results

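F3, F7, F10, F13a1, Plau and Plaur, 6 genes of blood coagulation and plasminogen activation, were followed by name in cells of mouse MB49 tumours, out of 30408 genes listed in the 4 libraries; all 6 were found in each library. MB49 is a mouse line of bladder carcinoma that came from a male, and the tumours had been grown in male and female mice. Live cells were sorted on CD45, the leukocyte surface protein encoded by Ptprc, and their transcripts were counted by unique molecular identifiers (UMIs) on the BD Rhapsody microwell system. There were 4 libraries, 1 each of male CD45-positive, female CD45-positive, male CD45-negative and female CD45-negative cells, and all carried the same tumour line. The labels give no strain, age, treatment or number of mice per library. The genes were chosen with their levels in these libraries known, so the levels below are a description, and with 1 library per group no difference has a replicate check.

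Tissue factor, encoded by F3, is the membrane receptor that starts clotting by binding factor VII (F7), and the pair activates factor X (F10), which forms thrombin and hence fibrin. The A subunit of factor XIII (F13a1) cross-links fibrin, and in mice and humans it is a known product of monocytes and tissue macrophages. Urokinase (Plau) cuts plasminogen to plasmin, which dissolves fibrin and matrix, and its receptor (Plaur) holds it at the surface of migrating leukocytes and of many tumour cells.

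Filtering left 5379 male and 4595 female CD45-positive cells and 5496 male and 3905 female CD45-negative cells, with median depths of 5980 to 10598 UMIs. No cell had identical counts in a pair of libraries; the barcodes are running numbers, so shared names carry no information. Cells were classed by markers, and a level is given as CPM, the UMIs of a gene per 1000000 UMIs summed over a class, with 95% intervals that cover counting error only. Mononuclear phagocytes (2455 male, 2913 female) expressed all 10 phagocyte markers, together at 25731 CPM in male and 20141 CPM in female cells. Neutrophils (570 male, 143 female) expressed all 8 neutrophil markers, at 31128 and 26726 CPM. Both sums are of the markers that set the class, so they are high by rule. Tumour cells (4754 male, 3511 female), which by rule had no UMI of Ptprc, had 614 and 771 CPM of the keratin Krt8, but Epcam was close to 0, at 5 male UMIs and 1 female UMI. They also had 3403 and 2862 CPM of the collagen gene Col1a1. Cells that fitted no gate stayed unassigned. They were 23.0% and 24.4% of the male and female CD45-positive cells and 13.03% and 8.81% of the CD45-negative cells. The gates allowed some markers of other classes.

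Among neutrophils, tumour cells and phagocytes, F3 stood highest in neutrophils and lowest in phagocytes. In neutrophils it reached 104 CPM in the male library (82.1 to 129, 79 UMIs) and 49.8 CPM in the female library (22.8 to 94.6, 9 UMIs). A single cell held 55.6% of the female neutrophil UMIs and 13.9% of the male ones. Phagocytes had 1.57 CPM in the male library (38 UMIs) and 2.50 CPM in the female library (63 UMIs). Neutrophils were thus 66.0-fold above phagocytes in the male library (44.3 to 99.96) and 19.96-fold above them in the female library (8.73 to 40.4). No F3 UMI was found in 757 male and 266 female lymphocytes, where the upper bounds of the 95% intervals were 1.63 and 5.37 CPM. Male tumour cells had 12.6 CPM and female tumour cells 4.02 CPM. The phagocyte level was 0.124-fold that of tumour cells in male mice (0.0873 to 0.172) and 0.621-fold in female mice (0.458 to 0.834), but the female ratio turned to 1.14 with cells thinned to 1000 UMIs. Phagocytes, being many, still held 16.7% of the male and 55.8% of the female CD45-positive F3 UMIs. Fibroblasts, with fewer than 50 cells in each library, were left out of this order. Their F3 CPM was above that of neutrophils, with overlapping intervals in the male library. They held 2.61% of the male and 25.8% of the female CD45-negative F3 UMIs.

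The 250 bases before the transcription start are shown for F3 and Plaur, whose levels were both highest in neutrophils among the classes with at least 50 cells in each library, and for the neighbouring genes F7 and F10, which were both lower in male than in female phagocytes. Sequences are RefSeq's on GRCm38.p6, in which 5 of the 6 genes had an entry, and capitals mark matches on either strand to any of 6 motifs searched: TGANTCA (bound by AP-1), ACGTG (core of the hypoxia response element), GAGGAAG (PU.1 and other Ets factors), TTGCNNAA (C/EBP), GGGCGG (Sp1) and the TATA box TATAAA. The F3 stretch is chr3:121723287-121723536, the Plaur stretch chr7:24462233-24462482, the F7 stretch chr8:13025784-13026033 and the F10 stretch chr8:13037058-13037307, all on the plus strand.
F3: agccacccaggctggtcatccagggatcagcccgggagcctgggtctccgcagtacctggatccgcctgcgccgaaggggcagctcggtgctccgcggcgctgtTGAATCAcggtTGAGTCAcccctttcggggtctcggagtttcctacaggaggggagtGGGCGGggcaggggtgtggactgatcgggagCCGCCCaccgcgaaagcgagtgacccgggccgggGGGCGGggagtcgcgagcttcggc
Plaur: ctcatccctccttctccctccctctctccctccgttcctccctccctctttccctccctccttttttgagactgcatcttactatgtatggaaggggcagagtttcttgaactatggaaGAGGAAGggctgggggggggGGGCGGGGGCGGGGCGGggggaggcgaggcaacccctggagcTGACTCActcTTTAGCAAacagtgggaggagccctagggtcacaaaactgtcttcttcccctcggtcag
F7: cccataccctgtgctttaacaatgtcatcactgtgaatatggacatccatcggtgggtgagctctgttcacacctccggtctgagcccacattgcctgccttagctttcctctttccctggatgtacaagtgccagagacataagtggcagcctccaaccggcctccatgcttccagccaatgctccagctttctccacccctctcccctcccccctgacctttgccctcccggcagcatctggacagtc
F10: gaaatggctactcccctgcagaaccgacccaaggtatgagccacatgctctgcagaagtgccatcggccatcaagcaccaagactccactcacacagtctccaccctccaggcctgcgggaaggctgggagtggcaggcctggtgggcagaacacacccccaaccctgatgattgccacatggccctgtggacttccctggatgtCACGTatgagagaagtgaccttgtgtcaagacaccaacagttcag
F3 held 2 AP-1 motifs, at 146 and 135 bases before the start, and 3 Sp1 motifs. Plaur held 1 AP-1, 1 PU.1, 1 C/EBP and 3 Sp1 motifs, the last of which overlap. F7 held none of the 6, and F10 held only an ACGTG core, on the reverse strand at 45 bases before the start. Among 32851 promoter stretches of the same length, 6.75% held AP-1, 16.6% ACGTG, 10.6% GAGGAAG, 9.56% C/EBP, 32.7% Sp1 and 12.4% TATAAA on either strand. A match is a run of letters and not a measured binding site.

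F7 and F10, the protease zymogens that tissue factor engages, were transcripts of the leukocyte gate. F7 had 47.7 CPM in male phagocytes (45.0 to 50.5) and 164 CPM in female phagocytes (159 to 169), against 8 and 11 UMIs in all male and female tumour cells. The phagocyte level was 354-fold the tumour cell level in male mice (179 to 821) and 630-fold in female mice (352 to 1263). F10 had 109 CPM in male phagocytes (105 to 114) and 307 CPM in female phagocytes (300.0 to 314), and 1 and 3 UMIs in the tumour cells of the male and female mice. Phagocytes held 80.1% of the male and 73.3% of the female CD45-positive UMIs of F7, and 76.0% and 77.6% of those of F10.

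Neutrophils shared F10 with phagocytes but had less F7. They had 148 CPM of F10 in the male library (122 to 178, 113 UMIs) and 393 CPM in the female library (307 to 496, 71 UMIs), 1.36-fold (1.11 to 1.64) and 1.28-fold (1.00 to 1.62) the phagocyte level. The second interval reaches 1, so neutrophils and phagocytes were not separated for F10 in the female library. For F7 neutrophils had 11.8 CPM in the male library (9 UMIs) and 33.2 CPM in the female library (6 UMIs). These were 0.248-fold (0.113 to 0.472) and 0.203-fold (0.0744 to 0.442) the phagocyte level.

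Free RNA from phagocytes can place UMIs in other cells, so each gene was also set against C1qa, C1qb and C1qc, complement genes of macrophages, in the same cells. The C1q genes are among the 10 phagocyte markers, and neutrophils and lymphocytes were gated with at most 5 of the 10. Their C1q UMIs were thus limited by the gate, which can raise these values. The gate of mature dendritic cells had no limit on phagocyte markers. Neutrophils had 26.3 male and 33.2 female F10 UMIs per 100 C1q UMIs, against 1.09 and 3.51 in phagocytes. Their F3 stood at 18.4 male and 4.21 female UMIs per 100 C1q UMIs, against 0.0157 and 0.0286 in phagocytes. Mature dendritic cells had 0.680 male and 1.58 female F7 UMIs per 100 C1q UMIs, against 0.476 and 1.88 in phagocytes, and 0.536 and 3.03 for F10, against 1.09 and 3.51. Lymphocytes had 12 male and 21 female F10 UMIs beside 988 and 665 C1q UMIs, or 1.21 and 3.16 per 100. For F7 lymphocytes had 0.202 male and 2.41 female UMIs per 100 C1q UMIs. The part of free RNA in these levels was not tested.

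**Figure D1:**
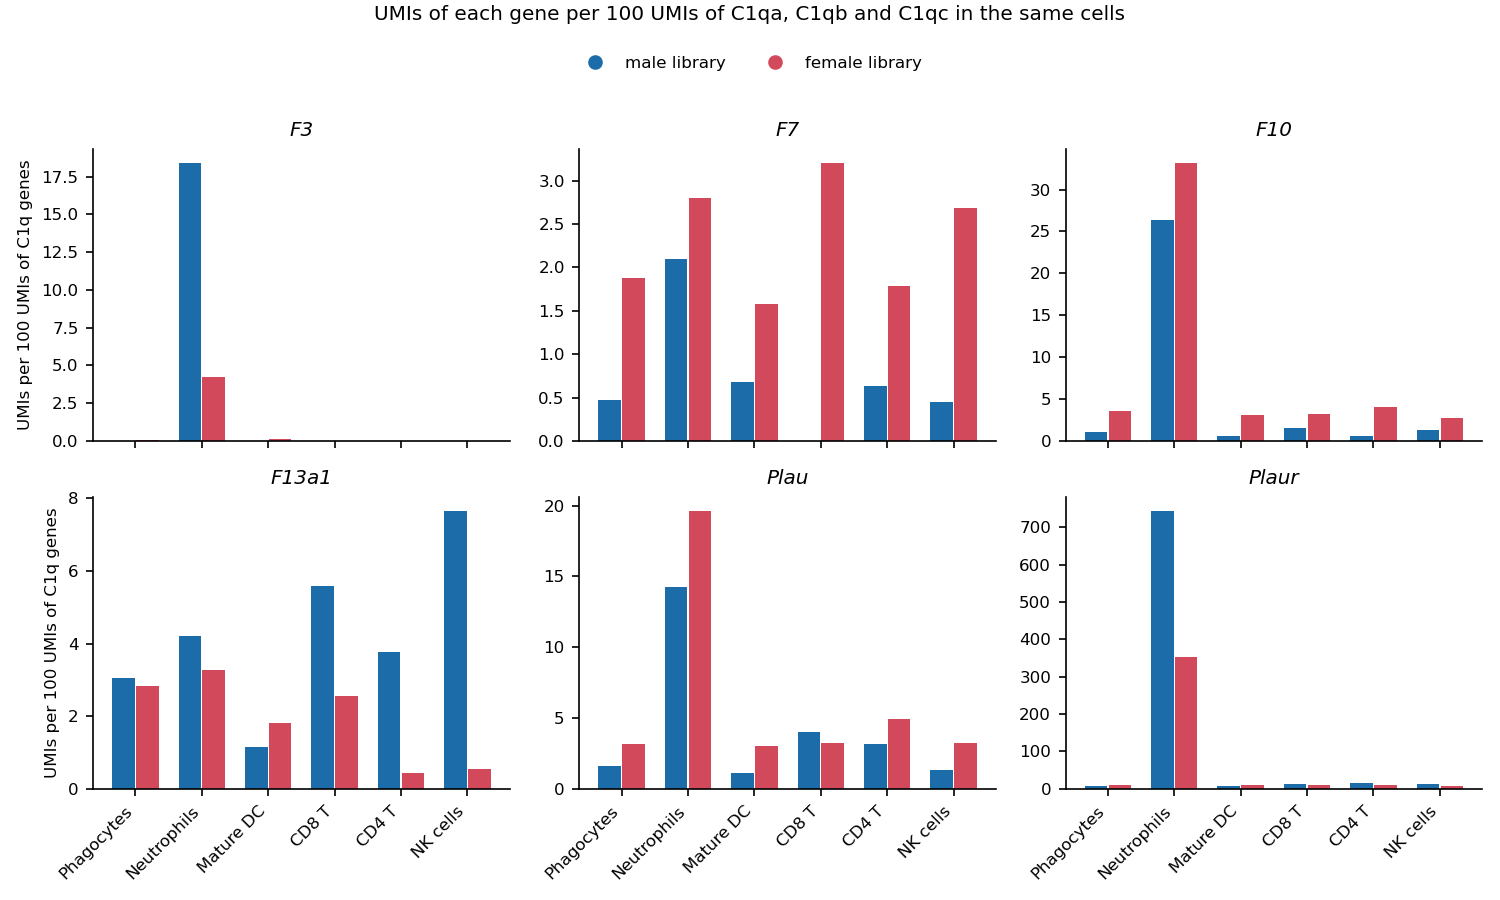
UMIs of each gene per 100 UMIs of C1qa, C1qb and C1qc summed over the same cells, by class (horizontal axis), in the male (blue) and female (red) CD45-positive library; each panel has its own vertical axis from 0. Bars of F3, F10, Plau and Plaur stand far higher in neutrophils than in phagocytes, as at 26.3 and 33.2 against 1.09 and 3.51 for F10. The gate limited C1q in neutrophils and lymphocytes. By CPM, Plau was not higher in neutrophils than in phagocytes, at 80.1 against 158 male and 233 against 277 female.

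F13a1 was a phagocyte transcript in both sexes. It had 305 CPM in male phagocytes (298 to 312) and 247 CPM in female phagocytes (241 to 253). Neutrophils had 23.6 CPM in the male library (18 UMIs) and 38.8 CPM in the female library (7 UMIs), at 4.20 and 3.27 UMIs per 100 C1q UMIs, beside 3.04 and 2.83 in phagocytes. Lymphocytes had 56 male and 8 female F13a1 UMIs, or 5.67 and 1.20 per 100 C1q UMIs. Tumour cells had 18 male and 3 female UMIs. At least 1 UMI was found in 40.0% of male and 40.8% of female phagocytes.

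Plau was split between phagocytes and tumour cells, with more in the tumour cells. Male phagocytes had 158 CPM (153 to 163) and male tumour cells 216 CPM (213 to 220), a ratio of 0.731 (0.705 to 0.758). Female phagocytes had 277 CPM (270.1 to 283) and female tumour cells 425 CPM (419 to 432), a ratio of 0.650 (0.632 to 0.668). In the order of levels tumour cells came above phagocytes in both sexes. Female neutrophils had 233 CPM (168 to 314), not separated from female phagocytes, whereas male neutrophils had 80.1 CPM (61.3 to 103), below male phagocytes.

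Plaur, the urokinase receptor, was highest in neutrophils, followed by phagocytes and tumour cells. Neutrophils had 4192 CPM in the male library (4048 to 4340) and 4192 CPM in the female library (3899 to 4502). Phagocytes had 855 CPM in the male library (843 to 866) and 955 CPM in the female library (943 to 968), and tumour cells 235 CPM (231 to 239) and 305 CPM (300.0 to 310). Neutrophils exceeded phagocytes 4.91-fold in the male library (4.73 to 5.09) and 4.39-fold in the female library (4.08 to 4.72). The phagocyte level was 3.64-fold (3.56 to 3.72) that of tumour cells in male mice and 3.13-fold (3.07 to 3.20) in female mice. The intervals of the 3 classes did not overlap in either sex.

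**Figure D2:**
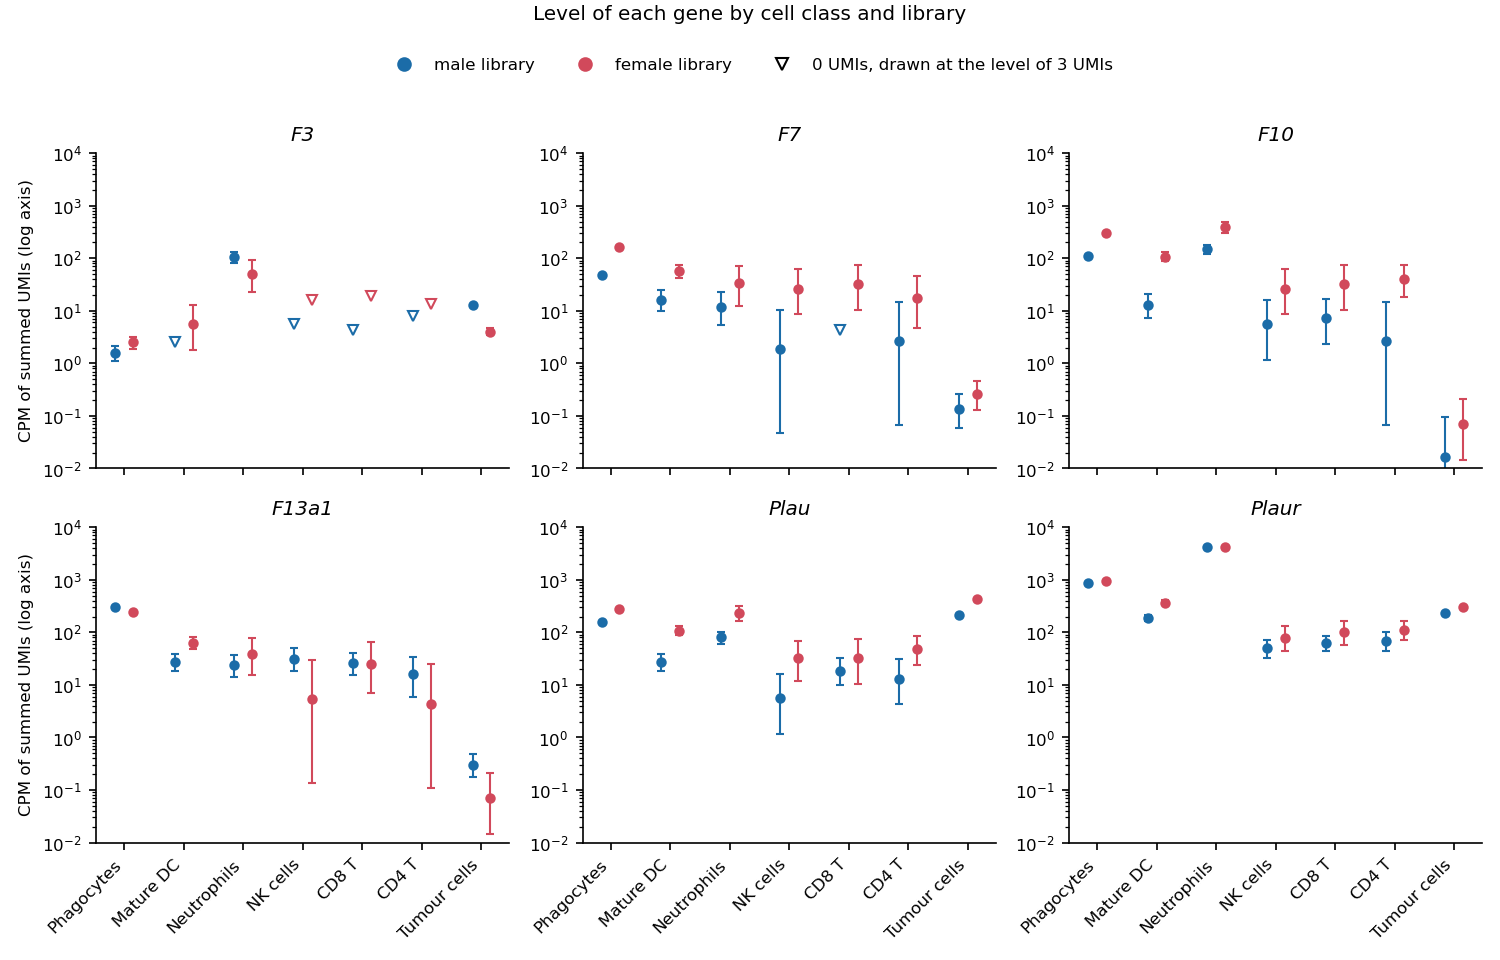
Level of each gene in CPM of summed UMIs (vertical axis, log scale) by cell class (horizontal axis) in the male (blue) and female (red) library of the gate that holds the class; bars are 95% counting intervals and open triangles mark 0 UMIs at the level of 3. Among the classes drawn, F3 and Plaur peak in neutrophils, F13a1 in phagocytes, and F7 and F10 are under 1 CPM in tumour cells. Fibroblasts, with few cells, are not drawn and had a higher F3 CPM than neutrophils.

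Between male and female phagocytes the zymogen genes and urokinase were lower in the male library, F13a1 was slightly higher and Plaur slightly lower. F7 had a male:female ratio of 0.291 (0.273 to 0.311), F10 of 0.356 (0.341 to 0.373) and Plau of 0.572 (0.550 to 0.595). F13a1 had a ratio of 1.24 (1.20 to 1.28) and Plaur of 0.894 (0.878 to 0.911). F3 had a ratio of 0.629 (0.409 to 0.956), but from 38 male and 63 female UMIs. Of 1865 eligible genes, those with at least 100 UMIs in all and 100 CPM in either library, 5.63% were at least 1.5-fold lower and 4.72% at least 1.5-fold higher in male phagocytes. Of the 5 members that were eligible, 3 were lower past 1.5-fold and 0 higher; the genes were chosen on this contrast, so nothing is read from that count, and F7 was eligible through the female library alone.

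The share of phagocytes with a UMI of F7 or F10 was lower in the male library. For F7 it was 18.2% in the male library (16.7 to 19.8) and 44.6% in the female library (42.7 to 46.4), and for F10 32.9% (31.0 to 34.8) and 67.1% (65.4 to 68.8). Median depths were 9576 UMIs per male and 7014 per female phagocyte. With every cell thinned to 1000 UMIs, which left out 176 male and 213 female phagocytes, F7 was found in 3.69% of male and 11.8% of female phagocytes. F10 was then found in 9.21% of male and 24.8% of female phagocytes. Lymphocytes at the same depth, as a measure of free RNA, gave 0 of 735 male cells for F7, which allows a share of up to 0.408% at 3 counts and 0.501% as the upper bound of the 95% interval, and 1.98% of female cells. For F10 they gave 0.952% of male and 3.17% of female cells, so the lymphocyte shares were higher in the female library as well. Plaur was found in 49.9% of male and 56.9% of female thinned phagocytes, against 4.35% and 11.1% of lymphocytes.

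Phagocytes were also divided by markers into 6 states, and the states were unevenly filled in male and female mice. The division uses markers known from earlier results of these data. F7 was lower in male cells in every state, with ratios of 0.139 in the Cx3cr1 Fcrls C6 state, 0.349 in the Slc7a2 Mmp12 Mmp13 state, 0.457 in the monocyte-gated state, 0.463 in the Arg1 and Chil3 state, 0.480 in the Retnla Ear2 Mgl2 state and 0.737 in the Cd209a state. The last has an interval that includes 1 (0.268 to 2.21). F10 was lower in male cells in all 6, from 0.121 in the Cx3cr1 Fcrls C6 state (0.0918 to 0.158) to 0.698 in the Retnla Ear2 Mgl2 state (0.638 to 0.763). Plau was lower in male cells in 5 states, at ratios of 0.417 to 0.724, and its ratio of 0.914 in the Cd209a state spans 1 (0.552 to 1.55).

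F13a1 and Plaur changed direction between states. F13a1 was higher in male cells 3.96-fold in the Cx3cr1 Fcrls C6 state (3.29 to 4.81), with 538 CPM in 645 male and 136 CPM in 82 female cells. It was also higher 2.93-fold in the Arg1 and Chil3 state (2.598 to 3.30) and 3.04-fold in the Cd209a state (1.82 to 5.38), and 1.19-fold in the Slc7a2 Mmp12 Mmp13 state. In the Retnla Ear2 Mgl2 state it was lower in male cells, at 120 CPM in 664 male and 161 CPM in 320 female cells, a ratio of 0.747 (0.669 to 0.835), and in the monocyte-gated state its ratio was 0.796. These differences between states were not tested. A single cell held 20.5% of the male F13a1 UMIs in the Arg1 and Chil3 state and 20.8% in the Cd209a state. In the Cx3cr1 Fcrls C6 state a single cell held 21.1% of the female F13a1 UMIs. Plaur was higher in male cells in 5 states, by 1.12-fold to 1.22-fold, although it was lower over all phagocytes, and it was lower only in the Cd209a state, at 0.803 (0.704 to 0.916). Averaged over states with equal weight, the Plaur ratio was 1.12 against 0.894 over all phagocytes, and the F13a1 ratio 1.77 against 1.24.

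**Figure D3:**
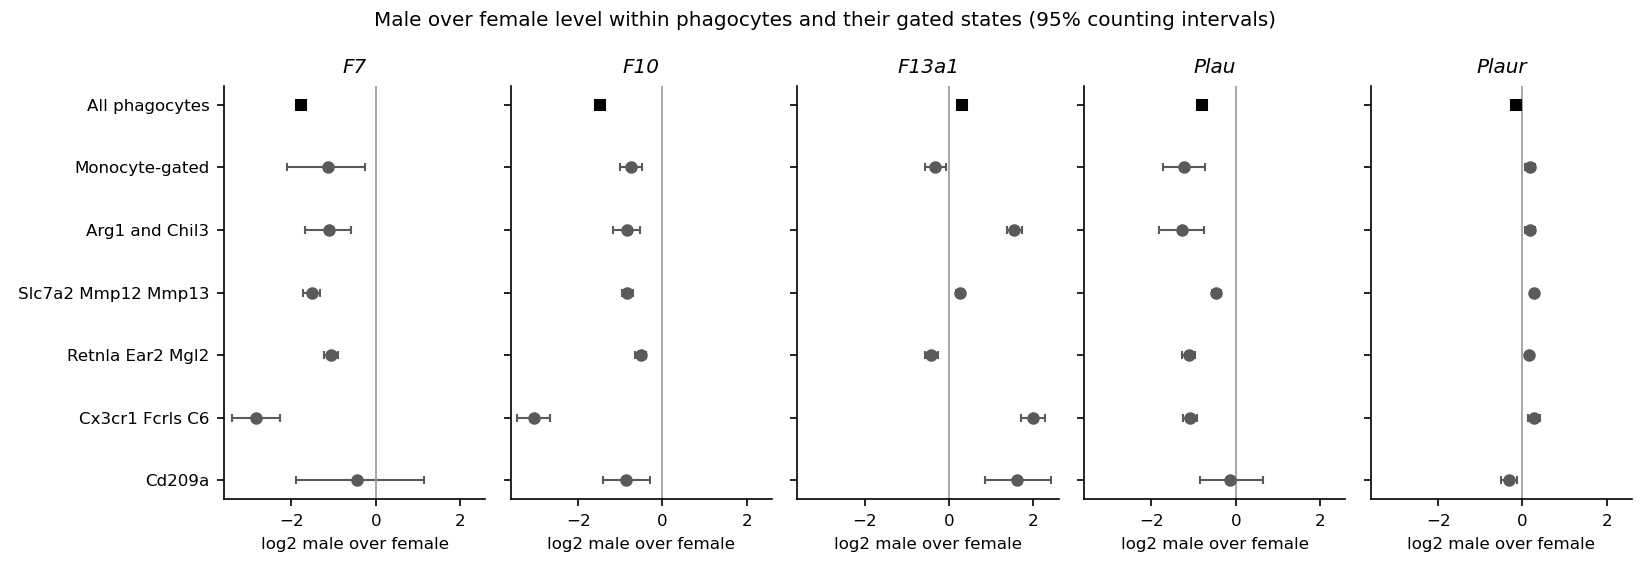
Log2 of the male over female level (horizontal axis) of 5 genes in all phagocytes (squares) and in the 6 gated states (circles), with 95% counting intervals; the grey line is no difference. F7 and F10 lie left of the line in every state, F13a1 lies on both sides, and Plaur lies right of it in 5 states.

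F7 and F10 are neighbours on mouse chromosome 8, both on the plus strand and separated by 1498 bases in the GENCODE M21 annotation of mm10 (F7 at chr8:13026034-13035809, F10 at chr8:13037308-13056676). Mcf2l, a guanine nucleotide exchange factor gene that ends before F7, also had a low ratio in phagocytes, 0.432 (0.370 to 0.503), at 9.88 CPM male and 22.9 CPM female. Proz, encoding the anticoagulant cofactor protein Z and lying after F10, had 43 male and 60 female UMIs, a ratio of 0.748 (0.493 to 1.12). Farther along, the ratio was 0.855 for Pcid2 (0.741 to 0.985), 1.06 for Cul4a (0.957 to 1.18) and 1.19 for Lamp1 (1.16 to 1.22). In this stretch the ratios past 1.5-fold were those of Mcf2l, F7 and F10.

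The cells with F7 also held F10 more often. Among phagocytes thinned to 5000 UMIs, F10 was found in 54.3% of male cells with F7 (48.3 to 60.3) and 22.1% of male cells without F7 (20.1 to 24.2). In female phagocytes it was found in 70.4% of cells with F7 (67.2 to 73.5) and 58.1% of cells without (55.1 to 61.0). F13a1 went the other way in the male library, at 23.0% of cells with F7 and 37.1% of cells without, while in the female library the shares were 33.5% and 34.8%. F13a1 was more often found with Plau: in 46.9% of male cells with it and 29.3% without, and in 38.5% and 30.0% of female cells. Plaur was in 87.8% of male cells with Plau and 87.0% without, and in 94.2% and 93.4% of female cells. F13a1 was in 27.0% of male cells with F10 and 37.9% without, but in 37.6% and 28.3% of female cells. Plau was in 21.9% of male cells with F7 and 34.1% without, and in 50.6% and 49.1% of female cells. The cells of a library share its free RNA, which was not separated out here. The thinning kept 1905 of 2455 male and 1908 of 2913 female phagocytes, with all states pooled. The states differed in these genes. At full depth, male cells of the Cx3cr1 Fcrls C6 state had F13a1 in 67.1%, Plau in 59.7% and F7 in 5.89%. In the male Retnla Ear2 Mgl2 state the shares were 23.3%, 34.3% and 32.8%. The part of the states in the shared detection was not tested.

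In neutrophils, F10 and Plau were lower in the male library and Plaur was level. F10 had a ratio of 0.377 (0.278 to 0.515) and Plau of 0.344 (0.229 to 0.523), from 61 male and 42 female UMIs, but over the neutrophil cluster the Plau ratio was 0.594. Plaur had a ratio of 1.00 (0.924 to 1.08). F3 went the other way, at 2.08 (1.04 to 4.72), and without the 1 cell richest in F3 in each library it was 4.01, while over the neutrophil cluster it was 1.42. Phagocyte transcripts moved with the sex in these cells: neutrophils had 563 CPM of the C1q genes in the male library and 1185 CPM in the female library, and the part of this in the F10 and Plau ratios was not tested.

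In tumour cells F3 was higher, and Plau and Plaur lower, in the male library. F3 had 12.6 CPM in male tumour cells (11.7 to 13.6) and 4.02 CPM in female tumour cells (3.44 to 4.67), a ratio of 3.14 (2.66 to 3.73). It was found in 9.91% of male and 3.53% of female tumour cells. Plau had a ratio of 0.509 (0.497 to 0.521) and Plaur of 0.770 (0.751 to 0.788). Of 2065 eligible genes 6.49% were at least 1.5-fold lower and 3.24% at least 1.5-fold higher in male tumour cells, and of the 2 eligible members, Plau and Plaur, Plau was past that fold, with rank 36 from the lowest; the genes were chosen on this contrast too. At least 1 UMI of Plau was found in 67.9% of male and 84.3% of female tumour cells, and of Plaur in 72.8% and 79.5%. The tumour cells had median depths of 11131 UMIs in the male and 11283 UMIs in the female library.

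Tumour cells fell into 7 clusters of at least 50 cells in a library, from a clustering that did not use the 6 genes, and these were unevenly filled. Plau was lower in male cells in each of the 6 clusters with at least 50 cells in both libraries, at ratios of 0.463 to 0.667. F3 reached its highest level, 43.8 CPM, in a cluster led by Fgb, Itih2 and Fetub that held 351 male and 6 female tumour cells, where 20.2% of male cells had a UMI. Without that cluster the F3 ratio was 2.64. Elsewhere F3 had ratios of 2.89 in a cluster led by Akr1c18, Ero1l and Anxa8 (2.07 to 4.03) and 2.46 in one led by Anln, Sprr1a and Sprr1b (1.60 to 3.76). A cluster led by Orm1, Enpp2 and Map1lc3a had 182 male and 2 female F3 UMIs, a ratio of 9.68 (2.64 to 80.5), and the interferon-response cluster led by Ifit3 and Ifit1 had 10 and 4 UMIs, a ratio of 3.84 (1.11 to 16.8). In the cluster led by the proliferation genes Anln, Birc5 and Ube2c it was 1.59 (0.970 to 2.77), and in that led by Rhox5, Emp2 and Mgp it was 1.00 (0.3402 to 3.999), so neither was separated from 1. Plaur was lower in male cells in 3 of the 6 clusters, at 0.829 to 0.865, higher in the Anln, Birc5 and Ube2c cluster at 1.15 (1.05 to 1.27), and not separated from 1 in 2. With the 6 clusters weighted equally the Plaur ratio was 0.922.

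**Figure D4:**
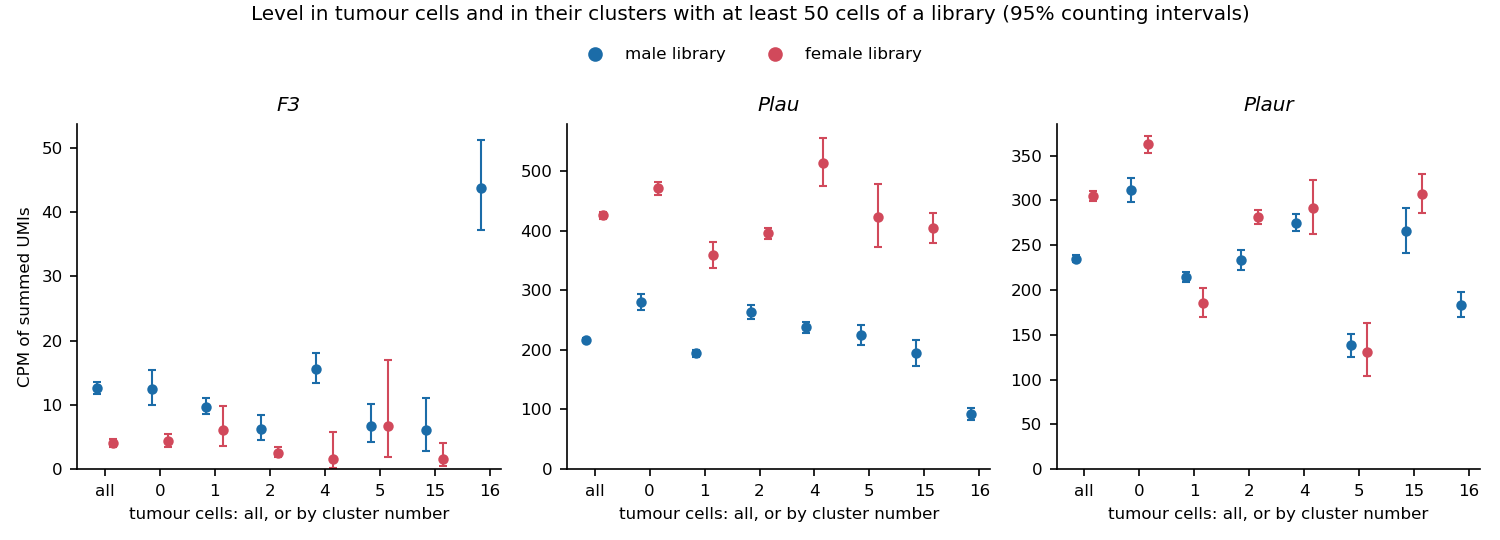
CPM of F3, Plau and Plaur (vertical axes, from 0) in all tumour cells and in each cluster with at least 50 cells of a library (horizontal axis), for the male (blue) and female (red) CD45-negative library, with 95% counting intervals. Plau is lower in male cells in the 6 clusters with at least 50 cells in both libraries, and F3 is highest, at 43.8 CPM, in the male cells of cluster 16, led by Fgb.

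Over the whole CD45-positive gate, F7 had 35.7 CPM in the male library and 151 CPM in the female library, a ratio of 0.237 (0.223 to 0.251). F10 had a ratio of 0.324 (0.311 to 0.336) and Plau of 0.510 (0.493 to 0.527). F13a1 had a ratio of 1.12 (1.09 to 1.15) and Plaur of 0.887 (0.874 to 0.901), but as means over cells these 2 turned to 0.859 and 1.06. F3 had 5.66 CPM in the male library and 3.02 CPM in the female library, a ratio of 1.87 (1.49 to 2.37), opposite to its ratio in phagocytes. Neutrophils were 10.6% of male and 3.11% of female CD45-positive cells and held 34.6% and 7.96% of their F3 UMIs, while unassigned cells held 45.2% and 31.0%. Fewer cells of a class and less RNA per cell cannot be told apart in these gate totals.

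Across 16 combinations of a class and a library with at least 50 cells, F7 and F10 had a Pearson correlation of 0.87 on the log2(CPM + 1) scale, and F3 and Plaur also of 0.87. Among 4056 eligible genes, those most like F3 were Lcn2 (0.97), Slpi (0.93) and Cxcl3 (0.92), and those most like F7 were Slc7a2 (0.94), Tgfbi (0.93) and Chil3 (0.90). F10 was most like Tarm1 (0.96), Sirpb1c (0.96) and C5ar1 (0.96), and F13a1 most like Hpgds (0.96), Clec4a1 (0.92) and Gatm (0.91). Plau was like Egr2 (0.95) and C3 (0.94), and Plaur most like Tpd52 (0.98), Thbs1 (0.98) and Tnfaip2 (0.97). Combinations of 1 library share its free RNA and depth, so these values are descriptions.

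The rest of the pathway was followed in a list of 54 genes in 7 roles. In phagocytes 34 of the 54 had at least 20 UMIs, of which 5 were at least 1.5-fold higher and 10 at least 1.5-fold lower in the male library. Over all 11859 genes with 20 UMIs the shares were 9.26% higher and 9.39% lower, and the median log2 ratio was -0.11 for the list and -0.02 for all genes. Lower in male phagocytes were the platelet and macrophage integrin chain Itgb3 (5.50 CPM male, 19.7 CPM female), the urokinase inhibitor Serpinb2 (4.42 and 15.7 CPM), factor V (F5), the cofactor of activated factor X (2.93 and 9.35 CPM) and the thrombin receptor F2r (3.31 and 6.97 CPM). Higher past 1.5-fold were Serpine2, a protease inhibitor (2.23 and 0.951 CPM), F9 (1.24 and 0.555 CPM), Serpind1, encoding heparin cofactor II (1.32 and 0.793 CPM), and Fgb. All were at low levels, and the Serpind1 interval includes 1 (0.926 as its lower bound). Fgb had 27 male and 0 female UMIs in phagocytes, at 1.12 CPM male, beside 249 CPM in male tumour cells. The part of tumour cell RNA in the Fgb level of phagocytes was not tested. Among the most abundant, the transglutaminase Tgm2, a relative of factor XIII, had 667 and 1236 CPM and the plasminogen-binding annexin Anxa2 329 and 544 CPM, while the integrin chain Itgb2 had 651 and 864 CPM and the plasminogen-binding enolase Eno1 561 and 679 CPM. Thus of these 4 abundant genes, Tgm2 and Anxa2 were among the 10 that were lower.

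In tumour cells 36 of the list had 20 UMIs, of which 8 were higher and 12 lower in the male library past 1.5-fold, against 8.18% and 10.4% of 12875 genes. The median log2 ratio was -0.19 for the list and -0.01 for all genes. The tissue plasminogen activator Plat had 165 CPM in male and 292 CPM in female tumour cells, a ratio of 0.564. The protease receptor F2rl1 (0.337 and 1.21 CPM), the thrombin cofactor of protein C activation Thbd (0.236 and 0.804 CPM) and the inhibitors Tfpi2 (0.826 and 2.72 CPM) and Tfpi (0.472 and 1.25 CPM) had the lowest ratios, all at low levels. The fibrinogen chain Fgb had 249 CPM in male tumour cells and 0 UMIs in female ones, at least 3515-fold higher with 3 UMIs set for the female library. Vitronectin (Vtn) had 4.81 and 0.118 CPM, Serpind1 3.51 and 0.142 CPM and Vwf 0.438 and 0.0946 CPM. Anxa2 and its partner S100a10 were the most abundant of the list, at 2732 and 3030 CPM and at 2545 and 2142 CPM; with Eno1, at 425 and 502 CPM, they differed by less than 1.5-fold.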

How the data were processed

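Transcripts of cells of MB49 tumours, sorted by CD45, had been captured with BD Rhapsody, with 1 library for each combination of sex and gate. CASAVA 1.8, UMI-tools, Seurat and the build mm10 are named, per the submitters' processing notes, while an aligner was not given in the sources used. The deposited values are the authors' raw UMI counts, whole numbers with no scaling. Genes that a library does not list were set to 0.

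Of 22115 barcodes, 19375 passed a filter of 500 UMIs, 250 genes and no more than 25% mitochondrial transcripts. Classes were set per cell from marker lists. The number of markers required was set after seeing the data (for example 5 of 10 for phagocytes, 4 of 8 for neutrophils and 2 of 8 for tumour cells). Markers of other classes were limited only in part. Neutrophils and lymphocytes could hold up to 5 phagocyte markers. Mature dendritic cells had no limit on phagocyte markers, and tumour cells had none on fibroblast markers. No doublet caller was run. CD45-positive cells that met several marker sets other than the phagocyte set stayed unassigned, but mixed cells within these limits could remain in a class. The alternative classes came from Leiden clusters (scanpy 1.11.5, leidenalg 0.10.2, python-igraph 0.11.9; 2000 variable genes without the 6 genes described, 30 principal components, 15 neighbours, resolution 1.0), where a cluster took the class of most of its gated cells if these were at least 30% of it. A phagocyte took the state with the highest marker score if that was at least 0.25 and led by 0.05, which left 456 male and 554 female phagocytes in no state; the Cd209a state was added after seeing the data.

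UMIs were summed per class and library and given as CPM with exact Poisson intervals, ratios with exact conditional binomial intervals and shares with Clopper-Pearson intervals, all at 95% (Python 3.11.15 with scipy 1.17.1, numpy 2.4.6 and pandas 2.3.3). They cover counting error only and treat UMIs as independent. No test was run, since cells are not replicates, and a difference between sexes cannot be told apart from one between libraries or mice. A ratio against 0 used 3 counts. Eligible genes exclude Xist, Tsix and 4 Y-linked genes and mitochondrial, ribosomal, haemoglobin, immunoglobulin and T cell receptor genes and unnamed gene models. All 6 genes are named throughout; from the pathway list, the text names the 4 largest and 4 smallest ratios and the 4 highest CPM of a comparison, and for each of the 6 genes the 3 most alike genes. Some genes that this rule selects are not reported here. Plat in tumour cells was added after its values were seen. The 6 genes, the marker and pathway lists and the states were chosen with earlier results of these data known.

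Simulated counts with known folds were used to check the computation of the ratios and intervals. They covered 6052 genes for phagocytes and 6798 for tumour cells. Counts were drawn from the Poisson model that the intervals assume. F3 and other genes of low level were left out, and neutrophils were not simulated. The direction was right for 100% of genes changed 1.5-fold, 2-fold and 4-fold in either comparison. Intervals held the true value for 95.2% and 95.3% of unchanged genes. For genes changed 1.5-fold, 2-fold and 4-fold this share was 92.6%, 96.8% and 88.4% in phagocytes. In tumour cells it was 91.5%, 97.5% and 98.4%. Whether the intervals hold for UMIs clumped in single cells was not tested. Alternatives were the cell filter, scaling, weighting, depth, marker gate and thresholds. Figures were drawn with matplotlib 3.10.9.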

Additional observations from a re-analysis of the deposited data

Results flagged for a closer look

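With 1 library per group none of the following differences between classes or states was tested; each is given as a log2 male:female ratio whose counting interval lies off 0, on opposite sides in different classes or states. F3 was higher in male neutrophils (1.06) and male tumour cells (1.65) and lower in male phagocytes (-0.67).

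F13a1 was higher in male phagocytes (0.31) and lower in male mature dendritic cells (-1.23), whose C1q genes summed to 2388 CPM in male and 3563 CPM in female cells. The mature dendritic cell markers summed to 15467 CPM in male and 8995 CPM in female cells of that class, and fibroblast markers to 7.69 and 2712 CPM; their part in the difference was not tested. Among the states it was higher in male cells of the Arg1 and Chil3 (1.55), Slc7a2 Mmp12 Mmp13 (0.25), Cx3cr1 Fcrls C6 (1.98) and Cd209a (1.60) states and lower in the monocyte-gated (-0.33) and Retnla Ear2 Mgl2 (-0.42) states.

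Plaur was higher in male cells of the monocyte-gated (0.18), Arg1 and Chil3 (0.18), Slc7a2 Mmp12 Mmp13 (0.29), Retnla Ear2 Mgl2 (0.16) and Cx3cr1 Fcrls C6 (0.27) states and lower in the Cd209a state (-0.32). The share of each state differed between the libraries, with 645 male and 82 female cells in the Cx3cr1 Fcrls C6 state and 76 male and 657 female cells in the Arg1 and Chil3 state.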

How the results depend on the processing

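With 1 library per group none was left out. No paired analysis was possible because the groups share a single number and no test was run.

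In phagocytes, F7, F10, F13a1, Plau and F3 kept their direction under every alternative run. The F3 ratio was 0.395 with cells thinned to 1000 UMIs. F7 was 0.332 with the stricter marker gate and F10 0.378, and F10 was 0.373 with clusters as classes. F13a1 was 1.11 as a mean over cells, 1.16 thinned and 1.19 with clusters; Plau was 0.639, 0.650 and 0.547 in the same settings and 0.520 with the stricter gate. Plaur was 0.849 as a mean over cells and 0.863 thinned. With states weighted equally, an alternative added after seeing the data, F7 was 0.409, F10 0.554, F13a1 1.77 and Plau 0.537, and Plaur turned to 1.12; the states were unevenly filled.

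In tumour cells the directions also held. F3 was 4.49 thinned and 3.76 with clusters as classes; added after seeing the data, it was 2.49 with clusters weighted equally and 2.64 without the Fgb cluster. Plau was 0.490 as a mean over cells, 0.543 with the stricter gate, 0.543 with clusters weighted equally and 0.527 without the Fgb cluster. Plaur was 0.794 as a mean over cells, 0.751 thinned, 0.789 with the stricter gate and 0.922 with clusters weighted equally.

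Over the whole gate F13a1 turned to 0.859 as a mean over cells and 0.908 thinned, and Plaur to 1.06 as a mean over cells. The female phagocyte:tumour cell ratio of F3 turned to 1.14 thinned. In neutrophils, with their cluster as the class, Plau was 0.594 and F13a1, from few UMIs, 1.45 against 0.610. With clusters as classes, levels in mature dendritic cells fell. F7 was 6.68 CPM male and 25.6 CPM female, against 16.2 and 56.3 CPM by markers. F10 was 10.0 and 59.7 CPM, against 12.8 and 108 CPM, and Plaur 74.6 and 193 CPM, against 187 and 369 CPM. The cause was not tested in these cases.

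Counts depend on the thresholds by construction. In phagocytes 88 genes were higher and 105 lower in male; with 50 UMIs and 50 CPM it was 159 and 175, and at 2-fold 26 and 43. In tumour cells 67 were higher and 134 lower, against 109 and 222, and 17 and 34. Of the pathway list in phagocytes, 5 were higher, against 3 with a minimum of 50 UMIs and 3 at 2-fold, and 10 were lower, against 5 at 2-fold. In tumour cells 8 were higher, against 5 with a minimum of 50 UMIs and 5 at 2-fold.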

Other observations

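Several small classes held the genes but were left out of the order of levels, because a library had fewer than 50 cells. Fibroblasts had 160 CPM of Plau in 15 male cells (93.5 to 257) and 465 CPM in 36 female cells (393 to 546). Their F3 stood at 198 CPM (123 to 303) in the male and 190 CPM (146 to 245) in the female cells, and at least 1 F3 UMI was found in 5 male and 14 female cells. Neither F7 nor F10 had a UMI in them. Plasmacytoid dendritic cells had 941 CPM of Plaur in 20 male cells (741 to 1178) and 822 CPM in 33 female cells (681 to 983). F13a1 had 240 CPM in the female plasmacytoid dendritic cells, but a single cell held 74.3% of its 35 UMIs.

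Among the unassigned male CD45-negative cells, F13a1 had 131 UMIs, of which a single cell held 46.6%. These cells also held C1q transcripts, with 103 CPM of C1qa, and went into no comparison.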
